A study of Mus musculus with 2 samples.

Results

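The secreted Wnt inhibitors described here are 10 genes chosen by name from the 25289 genes of the count table: Wif1, Sfrp1, Sfrp2, Sfrp4, Frzb, Dkk1, Dkk2, Dkk3, Sost and Notum. All 10 were in the table. No cutoff on a measured value was used to choose them, but earlier results of these data were known. The cells were single stromal cells of mouse bone marrow (strain label C56BL/6, age 8 to 16 weeks) whose RNA was read with inDrops, a method that captures each cell in a droplet with its own barcode. They came from crushed femurs, tibiae and pelvic bones and were sorted as CD31-CD45-Ter119-, to deplete endothelial, blood and red cells. Barcodes with B-lineage markers were still present outside the authors' filter. There was 1 group of 2 samples, with no treatment named in the labels, Stroma1 with 948 passing cells and Stroma2 with 1899. The authors placed each passing cell in 1 of 7 classes: Pro-osteoblast, Pre-osteoblast/chondrocyte, Pro-chondrocyte, Osteoblast progenitor, Pre-adipocyte, Adipocyte progenitor and MSC. They also ordered subsets of the cells along 3 pseudotimes, called here the osteoblast, chondrocyte and adipocyte paths.

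Wnt proteins are lipid-carrying ligands that bind Frizzled receptors together with the co-receptors Lrp5 and Lrp6, and the β-catenin branch of the pathway drives osteoblast formation and holds back adipocyte formation. The inhibitors act outside the cell in 3 ways. Wif1, the secreted Frizzled-related proteins Sfrp1, Sfrp2 and Sfrp4, and Frzb bind Wnt proteins; Dkk1, Dkk2 and sclerostin, the product of Sost, bind the Lrp co-receptors; and Notum is an enzyme that removes the lipid from Wnt proteins. Dkk3 belongs to the Dickkopf family by sequence, but it does not share the clear co-receptor role of Dkk1. Sclerostin is known as the brake on bone formation that osteocytes release.

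The sequence just before 2 of the genes is shown for reference, Wif1 and Dkk1. Wif1 was the most abundant inhibitor of Osteoblast progenitor and Pre-osteoblast/chondrocyte, and Dkk1 had most of its counts in Pro-osteoblast. Each run is the part of RefSeq's promoter window (GRCm38.p6) that lies upstream of the start in both RefSeq and the GENCODE annotation, read 5′ to 3′ on the gene's own strand. Capitals mark a match to a Runt-domain motif, searched as TGTGGT or TGCGGT on both strands.
Wif1, chr10:121033754-121033959, plus strand: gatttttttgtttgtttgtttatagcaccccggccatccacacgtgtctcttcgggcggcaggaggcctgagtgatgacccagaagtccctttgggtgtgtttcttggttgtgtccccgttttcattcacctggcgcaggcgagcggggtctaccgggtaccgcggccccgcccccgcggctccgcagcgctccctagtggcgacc
Dkk1, chr19:30549666-30549746, minus strand: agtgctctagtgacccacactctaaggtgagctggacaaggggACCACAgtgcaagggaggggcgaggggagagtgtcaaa
The 81 bases before Dkk1 held 1 Runt match, and a match occurred in 6.29% of 32851 promoter windows cut to the same length. The 206 bases before Wif1 held no Runt match, against 15.7% of windows of that length. Neither run held a TCF/LEF motif, searched as CTTTGAT or CTTTGAA on both strands, which 2.71% of windows held at 81 bases and 6.46% at 206 bases. Frzb, Sfrp2, Dkk2 and Sost were searched as well and held 0 matches to either motif. Runt matches occurred in 1.30% of windows of the length used for Frzb, and in 18.6% for Sfrp2, Dkk2 and Sost. A match is a string of letters and says nothing on binding in these cells.

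Several properties of the data bear on the values. Passing cells had a median of 1523.5 counts in Stroma1 and 1324 in Stroma2, and between 500 and 16562 counts. Barcodes were shared between libraries: 32 barcodes, or 64 cells, of Stroma1 and 203 barcodes, or 435 cells, of Stroma2 occurred in more than 1 library of their sample, and 12 barcodes occurred in both samples. Keeping each barcode once per sample changed no call of any inhibitor. Whether Stroma1 and Stroma2 are separate animals is not stated in the labels. A term for sample takes out the general difference between the 2. The p-values therefore measure only how unevenly classes or parts differed in these 2 samples, with all classes, or all parts of a path, in 1 fit. The classes and pseudotimes were deposited with these counts and may have been derived from them, the genes described included, so the tests between classes or parts are not independent of that placement.

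The class names were set against marker lists. The 7 osteoblast markers summed to 214044 and 213465 CPM (a gene's counts over all counts of a class and sample, scaled to 1e6) in Pro-osteoblast, Stroma1 before Stroma2 here and throughout, against 8370 and 8844 CPM in MSC. They summed to 98120 and 99111 CPM in Pre-osteoblast/chondrocyte, but to 8591 and 12472 CPM in Osteoblast progenitor, near MSC. The 6 niche stroma markers summed to 53547 and 46777 CPM in Osteoblast progenitor, against 71147 and 73116 CPM in MSC. Among these markers Ibsp was at 2300 and 2030 CPM in Osteoblast progenitor, against 5630 and 5960 in MSC. Its place in the bone lineage thus rests on the authors' label and path. The 5 adipocyte markers summed to 3226 and 3537 CPM in Pre-adipocyte, against 5430 and 5392 CPM in MSC, and Plin1 and Cfd were at 0 in Pre-adipocyte, while Cfd alone was at 0 in MSC. The 14 Pro-chondrocyte cells went against their label: all 5 chondrocyte markers, among them Acan, Col2a1 and Sox9, were at 0. In these 14 cells Dmp1, a matrix protein of osteocytes, stood at 23100 and 13200 CPM and Mepe at 24000 and 12100 CPM. They are called by their label below.

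The inhibitors differed widely in how many counts lay behind them. Sfrp4 had 4162 counts in 1475 passing cells, Wif1 had 3109 in 943, Sfrp1 had 678 in 470 and Dkk3 had 197 in 164. The other 6 had few: Sfrp2 87, Dkk1 77, Notum 53, Frzb 34, Dkk2 31 and Sost 4. Only Wif1, Sfrp1, Sfrp4, Dkk3 and Dkk1 passed the filter on low counts of the fit over classes, and Dkk1 passed through the class where it is high, so no test of it is given.

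The inhibitors taken as 1 pool differed, as values with no test, both in size and in make-up between classes. Their summed level was 288 and 212 CPM in Pro-osteoblast, 1956 and 2297 in Pre-osteoblast/chondrocyte, 3043 and 3398 in Osteoblast progenitor, 1308 and 1129 in Pre-adipocyte, 1893 and 1649 in Adipocyte progenitor, and 2250 and 2116 in MSC. Wif1 gave 77.4% and 81.5% of the summed counts in Osteoblast progenitor, against 12.6% and 13.5% in MSC. Sfrp4 gave 12.9% and 9.38% in Osteoblast progenitor, against 74.6% and 72.7% in MSC. Pro-osteoblast had the smallest pool of these 6 classes, in which Wif1 gave 66.7% and 39.4%, Dkk1 7.41% and 18.6%, Notum 9.26% and 14.3%, and Frzb 1.85% and 8.79%. These shares are shares of counts, which were not corrected for gene length.

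**Figure D1:**
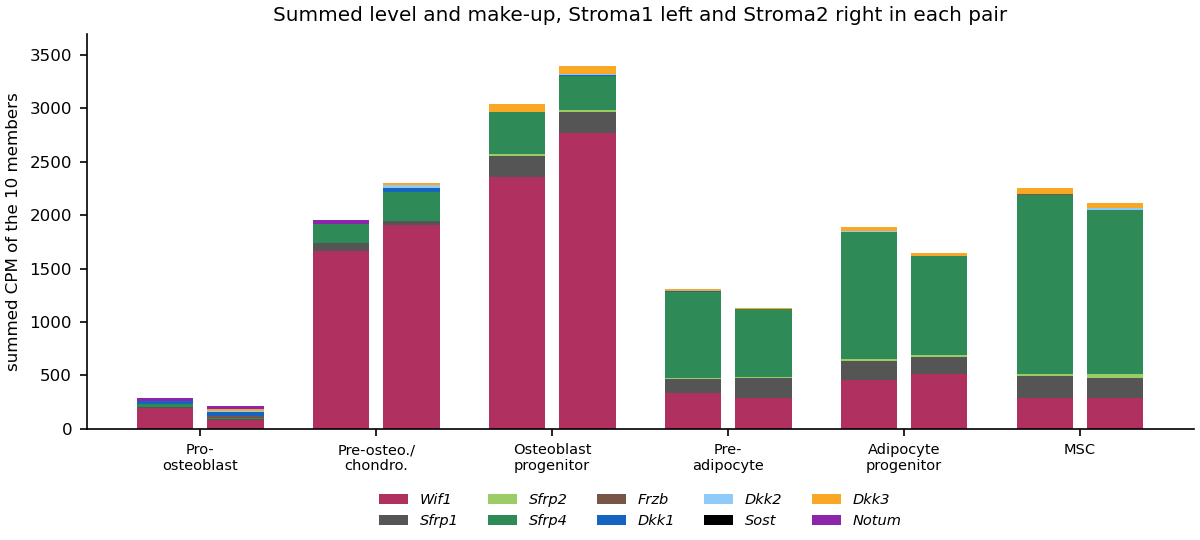
Summed CPM of the 10 inhibitors (vertical axis) in each class, with Stroma1 as the left bar and Stroma2 as the right bar of a pair and 1 colour per gene. Wif1 fills most of the bars of Osteoblast progenitor and Pre-osteoblast/chondrocyte, Sfrp4 most of those of MSC, and the Pro-osteoblast bars reach 288 and 212 CPM.

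Wif1 (GRCm38 chromosome 10, 121033960 to 121100650, plus strand), the Wnt inhibitory factor that binds Wnt proteins, was high in the classes labelled Osteoblast progenitor and Pre-osteoblast/chondrocyte. It was low in Pro-osteoblast and MSC. It stood at 192 and 83.4 CPM in Pro-osteoblast, 1666 and 1904 in Pre-osteoblast/chondrocyte, 2355 and 2771 in Osteoblast progenitor, 337 and 288 in Pre-adipocyte, 460 and 509 in Adipocyte progenitor, and 282 and 285 in MSC. Both samples of Pre-osteoblast/chondrocyte and of Osteoblast progenitor lay above both samples of every other class. In the 5 libraries taken alone, Osteoblast progenitor ranged between 2230 and 2960 CPM, against 242 to 346 CPM in MSC. Of all Wif1 counts in passing cells, 52.8% lay in Osteoblast progenitor and 16.0% in MSC, classes with 11.7% and 32.8% of the counts of all genes.

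On sums per class and sample, edgeR's quasi-likelihood test put Wif1 9.29-fold higher in Osteoblast progenitor than in MSC (log2 change 3.22, SE 0.14, adjusted p = 1.34e-33) and 7.27-fold higher in Pre-osteoblast/chondrocyte (2.86, SE 0.17, adjusted p = 9.22e-26). It rose by a smaller amount in Adipocyte progenitor (0.94, SE 0.16, adjusted p = 3.36e-06), a call that DESeq2 did not make (adjusted p = 0.0679) and that was lost with classes rebuilt without these genes (adjusted p = 0.474). Pre-adipocyte against MSC was at 0.40 (SE 0.21, adjusted p = 0.268). In the order of levels, Pre-osteoblast/chondrocyte against its neighbour Osteoblast progenitor was at −0.35 (SE 0.15, adjusted p = 0.147), and Pre-adipocyte against Adipocyte progenitor at −0.54 (SE 0.21, adjusted p = 0.155), so neither pair of neighbours differed past the threshold; with library totals the first pair did (−0.52, adjusted p = 0.0378).

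Pro-osteoblast stood far below the class before it. Wif1 fell by 3.15 on the log2 scale against Pre-osteoblast/chondrocyte (SE 0.20, edgeR adjusted p = 4.34e-24; −2.18 without Stroma2) and by 3.51 against Osteoblast progenitor (SE 0.18, adjusted p = 4e-31; −2.65 without Stroma2). Against MSC it was at −0.29 (SE 0.20, adjusted p = 0.256), or 0.39 without Stroma2, and this value depended on the scaling. TMM, the scaling used for the tests, sets the bulk of genes equal between classes, and library totals in its place lowered the median of all genes by 1.24 in this comparison, giving Wif1 −1.50 (adjusted p = 7.49e-09). With classes rebuilt by clustering without these genes it was −0.87 (adjusted p = 0.000109).

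The share of cells with a Wif1 count was 74.3% and 72.7% in Osteoblast progenitor, against 24.5% and 20.5% in MSC, at median depths of 1513.5 and 1199 counts per cell against 1377.5 and 1160. With each cell thinned to 500 counts, the shares were 47.2% and 55.8% in Osteoblast progenitor, against 13.1% and 9.69% in MSC. In Pro-osteoblast they were 28.6% and 18.03% before thinning and 9.52% and 5.90% after it, at median depths of 4422 and 4201 counts. Barcodes outside the filter that carry B-lineage markers, a cell type that should lack the gene, had a Wif1 count in 0.885% and 0.852%, at median depths of 1010 and 1004.5. The shares in these 3 classes lay above that background before and after thinning.

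Within Osteoblast progenitor, Wif1 was uneven. Late cells, past the median of the osteoblast pseudotime in that class, had 3585 and 4014 CPM, against 936 and 1029 CPM in early cells before it, a split made after seeing the data and given with no test. Sfrp4 in the same cells was at 266 and 155 CPM late, against 498 and 668 CPM early. In Pro-osteoblast, late cells had 45.4 and 71.5 CPM of Wif1, against 323 and 99.7 CPM in early cells. The highest count of Wif1 in 1 cell was 49, in an Osteoblast progenitor cell of Stroma1.

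**Figure D2:**
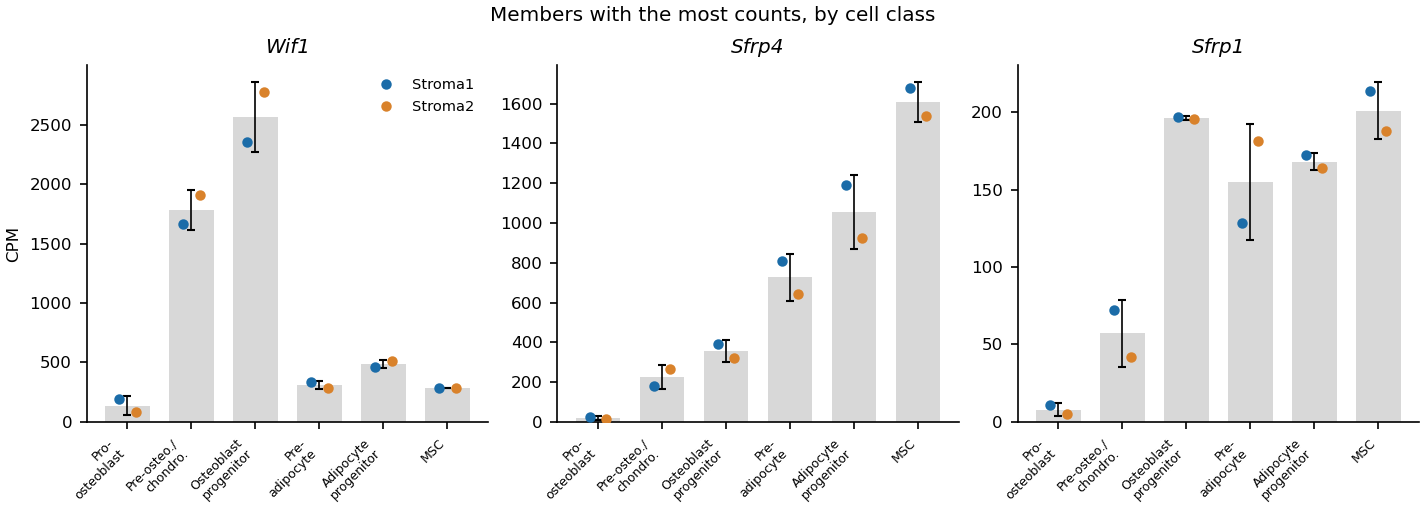
CPM (vertical axes, from 0) of Wif1, Sfrp4 and Sfrp1 in 6 classes, with a point per sample and a bar for the mean ± SD of the 2 samples. Wif1 is highest in Osteoblast progenitor (2563 ± 294 CPM), Sfrp4 is highest in MSC (1608 ± 99.4 CPM), and Sfrp1 is lowest in Pro-osteoblast and Pre-osteoblast/chondrocyte (7.75 ± 4.14 and 57.1 ± 21.7 CPM).

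Sfrp4 (chromosome 13, 19623104 to 19632994, plus strand), a Frizzled-related protein that binds Wnt proteins, was highest in MSC among the 6 classes with enough cells and stepped down along both lineages; the few Pro-chondrocyte cells are given with Dkk1 below. It stood at 26.7 and 13.1 CPM in Pro-osteoblast, 181 and 267 in Pre-osteoblast/chondrocyte, 394 and 319 in Osteoblast progenitor, 810.5 and 641 in Pre-adipocyte, 1189 and 926 in Adipocyte progenitor, and 1678 and 1538 in MSC. Both MSC samples lay above both samples of all 5 other classes, and both Pro-osteoblast samples below them. MSC held 67.3% of all Sfrp4 counts, beside 32.8% of the counts of all genes. Sfrp4 fell in 5 of 5 classes against MSC by edgeR: by 5.44 on the log2 scale in Pro-osteoblast (SE 0.23, adjusted p = 2.93e-36), 2.52 in Pre-osteoblast/chondrocyte (SE 0.22; −3.19 without Stroma2), 2.15 in Osteoblast progenitor (SE 0.15) and 0.87 in Pre-adipocyte (SE 0.15, adjusted p = 1.81e-06).

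The smallest step of Sfrp4, Adipocyte progenitor against MSC, was at −0.45 (SE 0.12, edgeR adjusted p = 0.0118). That call was lost under DESeq2 (adjusted p = 0.313), without the term for sample (adjusted p = 0.0869), without the filter on low counts (adjusted p = 0.367) and with rebuilt classes (adjusted p = 0.369). Among neighbours in the order, Pre-adipocyte against Adipocyte progenitor (−0.42, adjusted p = 0.120) and Pre-osteoblast/chondrocyte against Osteoblast progenitor (−0.37, adjusted p = 0.514) did not pass, although the first did with library totals (−0.55, adjusted p = 0.0447). Osteoblast progenitor fell by 1.28 against Pre-adipocyte (SE 0.18, adjusted p = 1.48e-08), and Pro-osteoblast by 2.93 against Pre-osteoblast/chondrocyte (SE 0.41, adjusted p = 1.27e-08; −1.82 without Stroma2). The share of cells with an Sfrp4 count was 9.52% and 4.59% in Pro-osteoblast, against 75.1% and 66.1% in MSC. After thinning it was 2.38% and 0.984% in Pro-osteoblast, beside a background of 1.77% and 1.14% in B-lineage-marked barcodes that were not thinned.

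Sfrp1 (chromosome 8, 23411502 to 23449632, plus strand), a close relative that also binds Wnt proteins, was level across 4 classes and low in the 2 later bone classes. It stood at 10.7 and 4.82 CPM in Pro-osteoblast, 72.4 and 41.8 in Pre-osteoblast/chondrocyte, 197 and 195 in Osteoblast progenitor, 128 and 181 in Pre-adipocyte, 172 and 164 in Adipocyte progenitor, and 214 and 188 in MSC. Against MSC it fell by 3.89 in Pro-osteoblast (SE 0.41, edgeR adjusted p = 8.22e-14) and by 1.74 in Pre-osteoblast/chondrocyte (SE 0.46, adjusted p = 0.00257). Osteoblast progenitor was at 0.01 (SE 0.24), Pre-adipocyte at −0.03 (SE 0.28) and Adipocyte progenitor at −0.09 (SE 0.23), and none of these passed. With rebuilt classes, Osteoblast progenitor was at −0.71 against Adipocyte progenitor (edgeR adjusted p = 0.0626), beside 0.10. Against Pre-adipocyte it was at −0.68 (edgeR adjusted p = 0.114), beside 0.03. That rebuilt class took in 76 Pre-osteoblast/chondrocyte cells, whose part in this was not tested. In Osteoblast progenitor Sfrp4 was thus called lower and Sfrp1 was not called; the difference between the 2 genes was not tested.

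Sfrp2 (chromosome 3, 83766321 to 83774316, plus strand), the other Frizzled-related Wnt binder, had too few counts for the test over classes. It had 0 counts in Pro-osteoblast and in Pre-osteoblast/chondrocyte, against 13 and 43 counts in MSC, or 17.8 and 41.9 CPM. With a floor of 3 counts over a class and both samples pooled, Sfrp2 was at least 17.4-fold lower in CPM in Pro-osteoblast than in MSC. On the TMM scale it was at least 7.19-fold lower. In Pre-osteoblast/chondrocyte it was at least 1.86-fold lower in CPM than in MSC. In Stroma1 alone, MSC at 17.8 CPM stood against floors of 16.0 CPM in Pro-osteoblast and 54.3 CPM in Pre-osteoblast/chondrocyte. Neither pooled bound in CPM was reached in that sample. In MSC of Stroma2, 12 of the 43 counts came from 1 cell. Sfrp2 overlaps an antisense gene in the annotation, and whether counting used strand is not given in the sources used here.

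Frzb (chromosome 2, 80411970 to 80447625, minus strand), a Frizzled-related Wnt binder known from cartilage, lay mostly at the other end. It had 1 and 27 counts in Pro-osteoblast, or 5.34 and 18.6 CPM, against 1 and 0 counts in MSC, or 1.37 and 0 CPM. Pro-osteoblast held 82.4% of its 34 counts, beside 30.6% of all counts of passing cells. Of the 28 Pro-osteoblast counts, 27 came from Stroma2, in which 6.56% of the class had a count, against 2.38%, or 1 cell, in Stroma1. It was not tested.

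Of the proteins that bind Lrp co-receptors, Dkk1 (chromosome 19, 30545863 to 30549665, minus strand) was found almost only in the bone classes. It had 4 and 57 counts in Pro-osteoblast, or 21.4 and 39.3 CPM, and 0 and 5 counts in Pre-osteoblast/chondrocyte, against 0 and 0 counts in MSC. Adipocyte progenitor also had 0, Osteoblast progenitor had 1 count and Pre-adipocyte 1. The counts of both samples were pooled for a fold bound. With the floor of 3 counts in MSC, Dkk1 was at least 21.8-fold higher in CPM in Pro-osteoblast than in MSC. On the TMM scale it was at least 52.8-fold higher, with the Pro-osteoblast counts taken as measured in both. In Stroma1 alone, 21.4 CPM in Pro-osteoblast stood against a floor of 4.11 CPM in MSC, so the pooled bound was not reached there. The 5 counts of Pre-osteoblast/chondrocyte are too few for such a bound. The 4 counts of Pro-osteoblast in Stroma1 came from 2 cells of library 1.1, and the 5 of Pre-osteoblast/chondrocyte from 2 cells of library 2.2.

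The 14 Pro-chondrocyte cells, with the osteocyte genes given above, held 9 counts of Dkk1 in 4 of the 10 cells of Stroma2 and 0 in the 4 cells of Stroma1. That is 11.7% of all Dkk1 counts. In Stroma2 these cells stood at 769 CPM of Dkk1, where the floor of 3 counts gives 256 CPM, against 39.3 CPM in Pro-osteoblast. The Pro-chondrocyte cells also held 2 of the 4 counts of Sost (chromosome 11, 101962458 to 101967015, minus strand), both in 1 cell of Stroma1. The other 2 Sost counts were 1 in Adipocyte progenitor and 1 in MSC, and Pro-osteoblast had 0, where the floor of 3 counts allows up to 1.83 CPM. Sfrp4 had 13 and 4 counts in the Pro-chondrocyte cells, or 2943 and 342 CPM, with 9 of them in 1 cell. With 4 cells in Stroma1 this class was not tested.

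Dkk2 (chromosome 3, 132085292 to 132180304, plus strand), the other Dickkopf that binds the co-receptors, was at background in the passing cells. A count occurred in 0.633% and 1.001% of them, against 0.885% and 0.852% of B-lineage-marked barcodes. MSC had 4 and 13 of the 31 Dkk2 counts and Osteoblast progenitor 0 and 5, and no class was tested.

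Dkk3 (chromosome 7, 112116017 to 112159057, minus strand) had its highest level among the 6 classes in Osteoblast progenitor. It stood at 5.34 and 19.99 CPM in Pro-osteoblast, 0 and 16.7 in Pre-osteoblast/chondrocyte, 75.4 and 74.5 in Osteoblast progenitor, 16.0 and 9.29 in Pre-adipocyte, 40.7 and 27.3 in Adipocyte progenitor, and 50.7 and 47.8 in MSC. No class passed the threshold against MSC by edgeR under TMM; Osteoblast progenitor was at 0.64 (SE 0.40, adjusted p = 0.457). Osteoblast progenitor was higher than Pre-adipocyte by 2.38 (SE 0.72, adjusted p = 0.0138), which rests on 4 counts in Pre-adipocyte and was lost under DESeq2 (adjusted p = 0.0737). Under library totals Dkk3 fell in Pro-osteoblast (−1.53, adjusted p = 0.00211), beside −0.28 under TMM, again with the shift of all genes by −1.24, and in Pre-adipocyte (−2.05, adjusted p = 0.0362), beside −1.74 under TMM (adjusted p = 0.127). Without Stroma2 the Pro-osteoblast comparison under TMM was at −2.25.

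Notum (chromosome 11, 120653788 to 120661175, minus strand), the enzyme that strips the Wnt lipid, was found mostly in Pro-osteoblast. It had 5 and 44 counts there, or 26.7 and 30.3 CPM, against 0 and 2 counts in MSC, or 0 and 1.95 CPM. In both samples about the same share of Pro-osteoblast cells had a count, 11.9% and 9.18%, against 0% and 0.245% in MSC, at median depths of 4422 and 4201 counts against 1377.5 and 1160. With each cell thinned to 500 counts the shares were 0% and 1.64% in Pro-osteoblast, against 0% and 0.123% in MSC, and 0 of 113 and 0 of 352 B-lineage-marked barcodes had a Notum count (95% exact upper bounds 3.21% and 1.04%). All 5 libraries had a Notum count in Pro-osteoblast, at 9.82 to 46.8 CPM. Pre-osteoblast/chondrocyte had 2 and 0 counts, and Osteoblast progenitor, Pre-adipocyte and Adipocyte progenitor had 0. Notum did not pass the filter and was not tested, and it overlaps 2 antisense genes in the annotation.

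**Figure D3:**
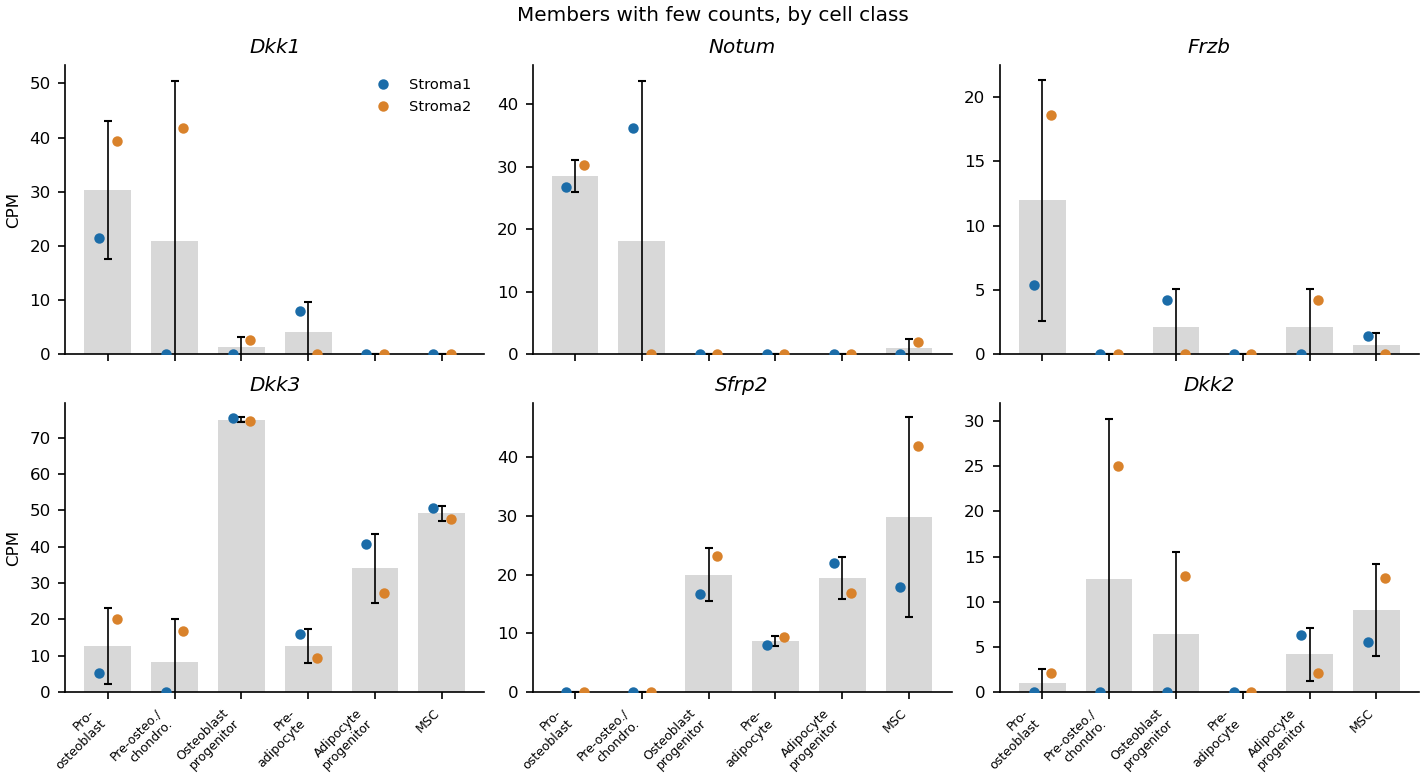
CPM (vertical axes, from 0, scaled to each gene) of Dkk1, Notum, Frzb, Dkk3, Sfrp2 and Dkk2 in 6 classes, with a point per sample and a bar for the mean ± SD of the 2 samples. Dkk1, Notum and Frzb are highest in Pro-osteoblast (30.3, 28.5 and 11.98 CPM on average), Dkk3 in Osteoblast progenitor, and Sfrp2 is at 0 in both of the later bone classes.

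The calls against MSC of Wif1, Sfrp1, Sfrp4 and Dkk3 were set beside those over all 6229 genes tested. In Pro-osteoblast Sfrp1 and Sfrp4 were called lower, where 38.6% of all genes were called. In Pre-osteoblast/chondrocyte Wif1 was called higher and Sfrp1 and Sfrp4 lower, beside 18.0% of all genes. In Osteoblast progenitor Wif1 was called higher and Sfrp4 lower, beside 7.93%. In Pre-adipocyte Sfrp4 was called lower, beside 10.3%, and in Adipocyte progenitor Wif1 was called higher and Sfrp4 lower, beside 4.17%. Between neighbouring classes, Wif1, Sfrp1 and Sfrp4 were called lower in Pro-osteoblast than in Pre-osteoblast/chondrocyte, beside 17.2% of all genes, and the same 3 were called lower in Pro-osteoblast than in Osteoblast progenitor, beside 31.8%. Sfrp1 was called lower in Pre-osteoblast/chondrocyte than in Osteoblast progenitor, beside 9.31%. In Osteoblast progenitor against Pre-adipocyte Wif1 and Dkk3 were called higher and Sfrp4 lower, beside 13.4%. Pre-adipocyte against Adipocyte progenitor gave 0 calls by edgeR and 0 by DESeq2, beside 4.96%, with Wif1 and Sfrp4 at an unadjusted p under 0.05 by edgeR. With library totals Wif1 and Dkk3 were also called lower in Pro-osteoblast against MSC, and Sfrp4 and Sfrp1 moved to −6.70 and −5.13. That scaling called 70.9% of all genes in this comparison, and the share of called genes that were higher was 9.2% in place of 51.6%. The same scaling moved that share to 39.6%, against 52.1% under TMM, in Pre-osteoblast/chondrocyte, to 43.7% against 82.0% in Pre-adipocyte and to 78.2% against 94.6% in Adipocyte progenitor. Under DESeq2 it was 95.2% in Pre-adipocyte.

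**Figure D4:**
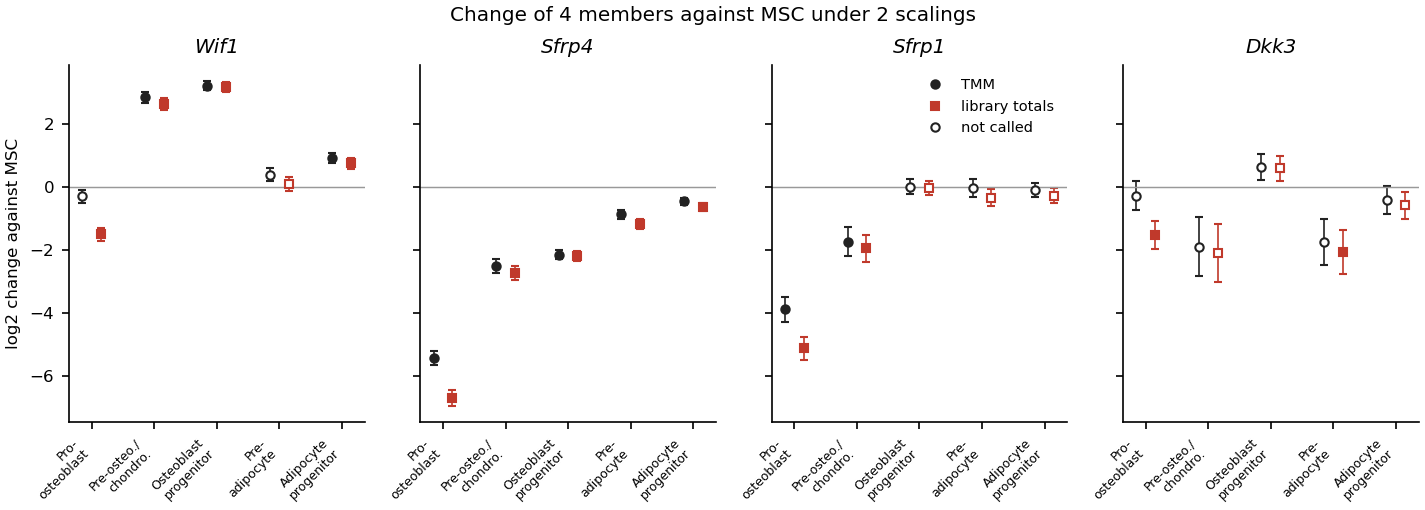
Log2 change against MSC (vertical axis) of 4 inhibitors in 5 classes, under TMM (circles) and library totals (squares), with bars of 1 SE and open symbols where edgeR's adjusted p was 0.05 or more. The 2 scalings lie far apart in Pro-osteoblast, where Wif1 is at −0.29 and −1.50, and close together in Osteoblast progenitor.

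The paths gave the same genes in an order set by pseudotime. Each path was cut into 5 parts with equal numbers of cells, to within 1 cell, and its cells numbered 1926 on the osteoblast, 1794 on the chondrocyte and 1893 on the adipocyte path. The paths share most of their early cells: part 1 of the chondrocyte path lies wholly within part 1 of the osteoblast path, with 359 cells, and parts 1 to 3 of the osteoblast path were 92.5% to 100% MSC. The 3 paths are therefore not independent of each other or of the classes. Their values are given side by side, with no test between paths.

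On the osteoblast path Wif1 climbed to a peak in part 4 and was low in part 5. Its mean CPM in parts 1 to 5 was 177, 248, 355, 2373 and 245, with SDs of 6.36, 0.797, 9.08, 421 and 49.5 (n = 2). Part 4 held 79.5% Osteoblast progenitor cells and part 5 held 89.4% Pro-osteoblast cells. Part 5 fell by 2.31 on the log2 scale against part 4 (SE 0.18, edgeR adjusted p = 4.98e-18), a comparison added after the levels were seen, in which Sfrp1 and Sfrp4 were also called lower, beside 32.0% of all genes. Part 5 was above part 1 by 1.43 (SE 0.22, adjusted p = 1.01e-07), but by 0.33 with library totals (adjusted p = 0.226), which lowered the median of all genes by 1.11.

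A smaller difference was present among cells mostly labelled MSC: part 1 held 100% MSC cells and part 3 held 92.5% MSC and 7.53% Osteoblast progenitor cells, whose part in the difference was not tested. Part 3 of the osteoblast path was above part 1 for Wif1 by 0.98 (SE 0.23, edgeR adjusted p = 0.00993), with 361 and 348 CPM in part 3 against 173 and 182 CPM in part 1. For Sfrp4 part 3 fell by 0.94 (SE 0.17, adjusted p = 0.000237), with 1258 and 1060 CPM against 2269 and 2124. Of all genes, 0.718% were called in this comparison. It was added after seeing the data, DESeq2 did not call Wif1 (adjusted p = 0.121), and pseudotime itself may rest on both genes.

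Sfrp4 declined in every part of the osteoblast path, with means of 2196, 1639, 1159, 417 and 44.5 CPM, and part 5 fell by 5.28 against part 1 (SE 0.25, edgeR adjusted p = 3.99e-28; −4.03 without Stroma2). Sfrp1 held between 180 and 213 CPM over parts 1 to 4 and was at 10.6 CPM in part 5, lower by 3.47 than in part 1 (SE 0.40, adjusted p = 2.77e-11; −2.80 without Stroma2). A straight line over the 5 parts did not call it (adjusted p = 0.274). Sfrp2 had 4 and 21 counts in part 1 and 0 in part 5, and as it passed the filter on this path through the earlier parts, no test of it is given. Dkk3 was at 42.2 CPM in part 1, 85.7 in part 4 and 14.0 in part 5, and part 5 against part 1 was at 0.00 (SE 0.93, adjusted p = 0.999), or −2.30 without Stroma2 and 0.52 without Stroma1. The calls of Wif1, Sfrp4 and Sfrp1 between parts 5 and 1 stand beside 37.5% of all 5709 genes. Of the called genes 49.4% were higher, or 10.7% with library totals and 62.6% with the straight line. Dkk1 and Notum lay at the end: part 5 held 4 and 59 of the Dkk1 counts on the path and 5 and 44 of the Notum counts.

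On the chondrocyte path Wif1 kept climbing to the last part, which held 67.7% Osteoblast progenitor and 24.5% Pre-osteoblast/chondrocyte cells and 3.90% Pro-chondrocyte cells. The means of Wif1 were 167, 237, 307, 725 and 2870 CPM, and part 5 was above part 1 by 4.17 (SE 0.16, edgeR adjusted p = 1.82e-34). The 14 Pro-chondrocyte cells, all in part 5, did not share this level. They held 0 and 1 Wif1 counts, or 62.1 CPM with both samples pooled, below the 186 CPM that a floor of 3 counts gives. Sfrp4 had means of 2244, 1644, 1358, 765 and 256 CPM and fell by 3.10 (SE 0.14, adjusted p = 5.71e-30). Sfrp1 was highest in part 4, at 272 CPM, and part 5 was below part 4 by 1.17 (SE 0.26, adjusted p = 0.000608) but not below part 1 past the threshold (−0.63, SE 0.28, adjusted p = 0.115). Between parts 5 and 4 Wif1 was also called higher and Sfrp4 lower, beside 9.94% of all genes. The calls of Wif1 and Sfrp4 between parts 5 and 1 stand beside 18.6% of all 5596 genes.

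On the adipocyte path Wif1 also ended above part 1 and Sfrp4 below it. Wif1 had means of 171, 247, 300, 543 and 351 CPM, with part 5 above part 1 by 1.29 (SE 0.21, edgeR adjusted p = 1.74e-06), and part 5 against part 4 at −0.45 (SE 0.17, adjusted p = 0.132), or −0.63 with library totals (adjusted p = 0.0121), where 5.61% of all genes were called under TMM. Sfrp4 had means of 2206, 1625, 1276, 1058 and 850 CPM and fell by 1.14 (SE 0.11, adjusted p = 5.46e-13). Sfrp1 was at 0.00 (SE 0.25, adjusted p = 0.998). The calls of Wif1 and Sfrp4 stand beside 12.1% of all 5904 genes. Of the called genes 72.9% were higher, or 42.4% with library totals and 87.5% under DESeq2.

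**Figure D5:**
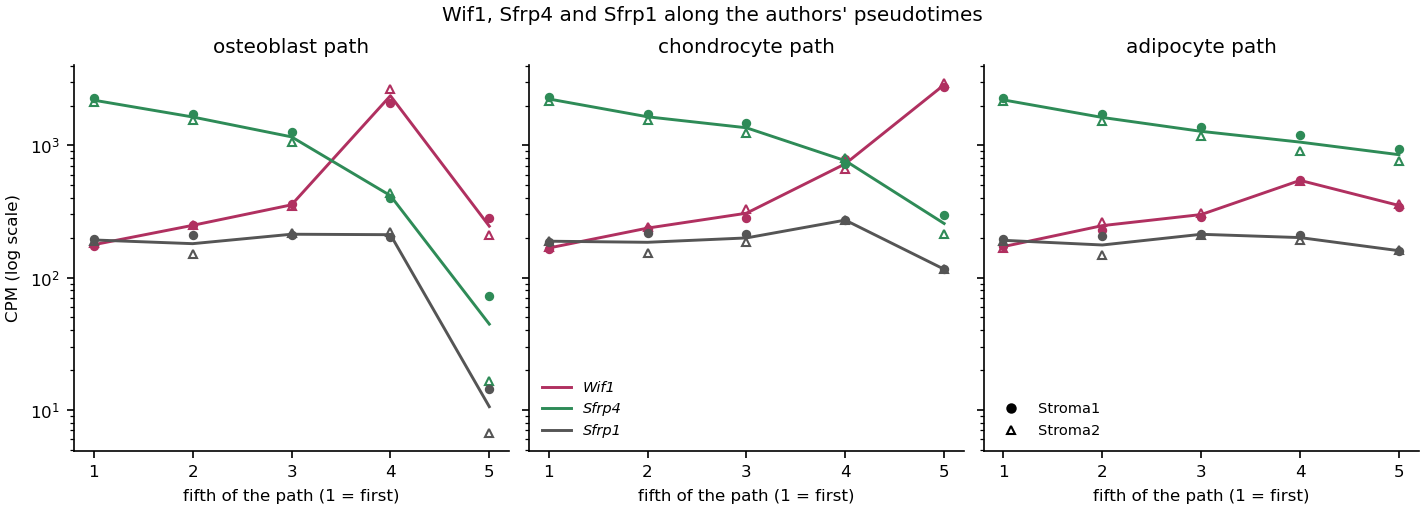
CPM (vertical axis, log scale) of Wif1, Sfrp4 and Sfrp1 in 5 parts of each path, low to high pseudotime, with circles for Stroma1, triangles for Stroma2 and lines through the means. Wif1 peaks in part 4 of the osteoblast path (2373 CPM) and in part 5 of the chondrocyte path (2870 CPM), while Sfrp4 declines on all 3.

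Some cells carried counts of 2 inhibitors, and this is given as a description. In Osteoblast progenitor, Sfrp4 had a count in 33.6% and 22.2% of cells with Wif1, against 43.2% and 33.8% of cells without it, although the cells with Wif1 were deeper, at medians of 1737 and 1406 counts against 961 and 871. In MSC the shares with Sfrp4 were 71.5% and 71.9% in cells with Wif1, against 76.3% and 64.7% without. The samples thus went opposite ways in MSC.

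The rest of the pathway was read from a list of 83 Wnt genes that are no members, 82 of them in the table and 37 tested over the classes. In Osteoblast progenitor against MSC 5 were called higher and 3 lower, beside 4.62% and 3.31% of all genes. Wisp1, a matricellular protein induced by Wnt signals, rose by 3.18 (SE 0.33, edgeR adjusted p = 1.4e-12), with 122 and 134 CPM against 13.7 and 14.6. Ccnd1, the cell cycle regulator cyclin D1, was also called higher, at 33.5 and 18.0 CPM against 4.11 and 0.975. It had only 8 and 7 counts, against 3 and 1 in MSC, so no p-value is given for it. Lrp4, a receptor of sclerostin, rose by 2.14 (SE 0.35, edgeR adjusted p = 1.49e-06). Wisp2, another matricellular protein, fell by 1.81 (SE 0.22), Rspo2, an R-spondin that strengthens Wnt signals, by 1.14 (SE 0.32) and the receptor Fzd1 by 0.93 (SE 0.26). The list's median change was 0.07, beside 0.01 over all genes.

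In Pro-osteoblast against MSC 10 of 37 were called higher and 14 lower, beside 19.9% and 18.7% of all genes, with a median of −0.33 for the list and 0.01 for all genes. Cthrc1, a secreted protein of collagen-rich matrix, had 1030 and 1060 CPM against 1.37 and 0.975, Wisp1 had 614 and 627 against 13.7 and 14.6, and Tcf7, a transcription factor of the pathway, had 58.8 and 73.1 against 8.23 and 3.90. All 3 were among the 10 called higher by edgeR, Wisp1 with an adjusted p of 6.69e-39. In MSC, Cthrc1 had only 1 and 1 counts and Tcf7 6 and 4, so no p-value is given for them. Wisp2 had 5.34 and 1.38 CPM against 451 and 480, Rspo2 5.34 and 0 against 192 and 149, and Rspo3 0 and 0.689 against 129 and 134, and all 3 were called lower. Both R-spondins tested and both genes of Wnt processing tested, Porcn and Wls, were among the 14 called lower. Part 5 against part 1 of the osteoblast path gave 10 of 36 called higher and 17 lower, beside 18.5% and 19.0%, with the same 3 highest and 3 lowest.

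In Pre-osteoblast/chondrocyte against MSC 8 were called higher and 9 lower, beside 9.36% and 8.62%. Ccnd1 had 380 and 317 CPM against 4.11 and 0.975, Lrp4 398 and 267 against 30.2 and 28.3, and Lef1, a transcription factor that acts with β-catenin, 36.2 and 41.8 against 2.74 and 5.85. Rspo2 and the receptor Fzd4 had 0 counts in both samples, against 192 and 149 CPM for Rspo2 and 39.8 and 44.8 CPM for Fzd4 in MSC, and the corepressor Tle1 had 0 and 8.35 CPM against 89.1 and 132. On the chondrocyte path 6 of 36 were called in each direction, beside 9.49% and 9.15%.

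The adipocyte classes had fewer calls. In Pre-adipocyte against MSC 3 of 37 were higher and 2 lower, beside 8.48% and 1.86%, and in Adipocyte progenitor 2 were higher and 0 lower, beside 3.95% and 0.225%. Myc, a growth regulator and Wnt target, had 1440 and 1050 CPM in Pre-adipocyte and 319 and 395 in Adipocyte progenitor, against 74.0 and 61.4 in MSC. Ctnnb1, which encodes β-catenin, rose by 0.67 in Pre-adipocyte (SE 0.19, edgeR adjusted p = 0.00988) and by 0.58 in Adipocyte progenitor (SE 0.15, adjusted p = 0.00871). On the adipocyte path 3 of 34 were called in each direction, beside 8.81% and 3.27%.

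The genes whose pattern was most like each tested inhibitor were found by Pearson's r of log2(CPM + 10) over 12 sums, 2 samples by 6 classes, which share library and depth. For Wif1 they were Tpm2 (r = 0.970), Ccdc3 (0.952) and Kcnk2 (0.939). For Sfrp4 they were Nptn (0.987), Pon2 (0.981) and Epdr1 (0.978), and for Sfrp1 Gas6 (0.993), Tgfbr3 (0.991) and Ogn (0.988). For Dkk1 they were Dlx3 (0.969), 4930562C15Rik (0.906) and Mlip (0.905), and for Dkk3 Mut (0.963), 6820431F20Rik (0.949) and Rpl7l1 (0.925). Among the inhibitors, Sfrp1 and Sfrp4 were most alike (0.916), while Wif1 stood apart from both, at 0.398 with Sfrp1 and 0.196 with Sfrp4. Dkk1 was at −0.863 with Sfrp1 and −0.728 with Sfrp4. However, 79.2% of its counts lay in Pro-osteoblast, beside 30.6% of the counts of all genes, and MSC and Adipocyte progenitor held 0. The r values of Dkk1, those with its likest genes included, thus mostly restate its level in Pro-osteoblast.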

How the data were processed

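Counts per gene and cell barcode were deposited by the authors as whole numbers, together with a filter label, a class, 3 pseudotimes and a mitochondrial share per barcode, which the authors deposited as a fraction. Per the submitters' processing notes, Bowtie 1.1.1 and GRCm38 were used. How reads were counted, how molecular identifiers were handled and whether doublets were removed: not given in the sources used here. No doublet caller was run. The table held 15028 barcodes, of which 2847 passed the authors' filter; 0 columns of values were left out.

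Counts were summed per sample and class, or per sample and part of a path, where both samples had at least 15 cells. The sums were tested with edgeR 4.0.16 in R 4.3.3 (quasi-likelihood test, TMM scaling, gene filter with a minimum count of 10, sample as a term in the model, Benjamini-Hochberg adjustment over all genes, threshold 0.05). The sample term pairs sums of the same sample, so the pairing comes from the design. The tests were first run on simulated data. DESeq2 1.42.0 and clustering with scanpy 1.11.5 gave alternatives. Thinning drew 500 counts per cell, and all passing cells had that many. Floors of 3 counts and 95% exact binomial intervals cover counting error only. In a fold bound the counts of both samples are pooled and the side with counts is taken as measured. B-lineage-marked barcodes had counts of at least 3 of 6 B-lineage genes and at least 500 counts.

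The members and lists were chosen with earlier results of these data known. The text names all 10 members, in each comparison the 3 highest and 3 lowest called genes of the Wnt list that moved the same way in both samples, and the 3 genes most like each tested member. Library totals, the early and late cells of a class and comparisons of parts 5 and 4 or 3 and 1 were chosen after seeing the data. Promoter sequences came from RefSeq (GRCm38.p6), which matched 6 of the 10 members.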

Additional observations from a re-analysis of the deposited data

Results flagged for a closer look

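Barcodes outside the authors' filter entered no comparison. Over 12181 such barcodes with 12203117 counts, 9 of the 10 inhibitors lay above the 0.246 CPM that a floor of 3 counts gives. The levels were 52.2 CPM for Wif1, 58.8 for Sfrp4, 9.75 for Sfrp1, 2.21 for Sfrp2, 0.41 for Frzb, 0.901 for Dkk1, 15.6 for Dkk2, 4.26 for Dkk3 and 1.31 for Notum. Sost had 2 counts, below the floor.

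Dkk2 stood apart in where its counts lay: 190 counts, or 86.0% of all, were outside the filter and 31 in passing cells, against 12.5% to 33.3% for the other 9. Barcodes with no filter label held 44 and 124 of them, at 48.8 and 53.2 CPM, against 3.62 and 6.78 CPM in passing cells. These barcodes were shallow, with medians of 192 and 167 counts, and all 5 libraries had Dkk2 counts among them, at 24.8 to 70.2 CPM.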

How the results depend on the processing

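No result for an inhibitor changed direction while past the threshold in any alternative run. The counts of inhibitors called below include Dkk1 in the classes and Sfrp2 on the osteoblast path, which passed the filter only where they are high, and are given only to compare settings. In Pro-osteoblast against MSC the count was 3, beside 38.6% of all genes. It was 2 under DESeq2 (30.7% of all genes), 4 with rebuilt classes (37.5%), 5 with library totals (70.9%) and 6 with no filter on low counts (12.9% of 19058 genes). In Pre-adipocyte it was 1, and 2 with library totals (14.9%). In Adipocyte progenitor it was 2, but 0 under DESeq2, 1 with no filter (0.976%), 1 with no replicate block (3.85%) and 0 with rebuilt classes. On the osteoblast path it was 4, beside 37.5%, and 3 with library totals (61.1%), 3 with the straight line (16.8%) and 7 with no filter (11.9% of 17849 genes). Keeping each barcode once gave the same side of the threshold for all 117 results, and the fit without the replicate block changed 1 single-gene call, Sfrp4 in Adipocyte progenitor (adjusted p = 0.0869). Cutting the paths into 3 parts in place of 5 changed the side of the threshold for none of 14 single-gene results, while the count on the chondrocyte path was 3 (13.6% of all genes) in place of 2 (18.6%).

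With 1 sample left out there is no test. The spread here is the SD of the 2 values that leaving out either sample gives, so the 2 counts below are not independent. Without Stroma1, values moved by more than this spread in 11 results and did not in 106. Without Stroma2, which holds 305 of the 347 Pro-osteoblast cells, they did in 45 and did not in 51. Rebuilt classes matched the deposited class in 76.6% of cells and gave Pre-osteoblast/chondrocyte no cluster of its own, so that class has no value there. Over all genes, calls in Pro-osteoblast numbered 2407, or 4415 with library totals. In Osteoblast progenitor there were 494, or 278 under DESeq2 and 784 with rebuilt classes, and in Adipocyte progenitor 260, or 156 under DESeq2. The osteoblast path gave 2139, or 3486 with library totals and 958 with a straight line. DESeq2 gave 574 on the chondrocyte path, beside 1043, and 337 on the adipocyte path, beside 713. The causes were not tested. Depth limits Sfrp2, Frzb, Dkk1, Dkk2, Sost and Notum, each with under 100 counts.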
